A study of Drosophila melanogaster with 9 samples.

Results

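The control immunoprecipitate of an RNA immunoprecipitation and sequencing (RIP-seq) experiment was compared with total extract. Both came from 0 to 3 h collections of embryos from wild-type Drosophila melanogaster. The Fab in the control immunoprecipitate (control IP) is named anti-EGFR-C1 and is unrelated to the study's target, the RNA-binding protein ORB2. Each Fab carries a FLAG tag, was held on anti-FLAG M2 beads and was eluted with FLAG peptide. The input was RNA from total extract, with no Fab or beads. The comparison used the 3 control IP libraries and the 3 input libraries of the series' 9 libraries. The remaining 3 libraries, from the IP with the anti-ORB2 Fab E8, are quoted only as values beside these. All 3 groups share the genotype, the age and the extract type, and no group carries a transgene or a mutation according to the labels. Of 6440 genes in the deposited tables, 6355 averaged 10 or more normalized counts across these 6 libraries and were tested.

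In the first hours of development the Drosophila embryo is a syncytium that lives on mRNA loaded by the mother, and transcription of its own genome begins in earnest only toward the end of this collection. mRNA in such an extract is carried on ribosomes, on the endoplasmic reticulum and in granules with RNA-binding proteins. A control IP measures the RNA that stays with beads, Fab and tube walls through the washes without the target protein, and it is the background against which a target's RNAs are judged. A difference between control IP and input is a difference in share of the recovered RNA. How much RNA was recovered from each sample is not part of the tables, so retention of one class and loss of another cannot be told apart from this comparison alone.

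The normalized counts of the 6440 genes summed to between 3504705 and 3747319 in the control IP libraries and between 2625388 and 2856867 in the input libraries. Between 5 and 11 genes were at 0 in a control IP library and none in an input library. Low values in the control IP libraries lay within 0.15 of a whole step for 77.1% to 88.5% of values, which corresponds to about 2960000 to 4190000 reads on listed genes, and the depth of the input libraries is unknown. Early embryo markers were present, with 10 of 10 maternal and 6 of 8 zygotic markers listed (eve and Kr were not), and 0 of 15 markers of eye, muscle, fat body, follicle, neuron, hemocyte and testis were listed. Input replicate 1 stood apart from the other inputs. Its Spearman correlation across genes was 0.889 to 0.908 with input replicates 2 and 3, which correlated at 0.967 with each other, and 0.803 to 0.819 with the control IP libraries, which inputs 2 and 3 matched at only 0.539 to 0.607. The control IP libraries correlated at 0.971 to 0.984 with one another. Results below rest on all 6 libraries. The labels do not say whether the libraries of a group came from separate extracts, so the p-values measure the spread between these libraries, which may be technical.

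Most of the measured transcriptome differed between control IP and input. By limma on log2(normalized count + 1), with an adjusted p (Benjamini-Hochberg) below 0.05, 2126 genes (33.5%) were higher in the control IP and 2050 genes (32.3%) were lower, 65.7% of genes in either direction. The increases reached further than the decreases. At least a 2-fold difference was estimated for 1567 called genes (24.7%) that were higher and 1360 (21.4%) that were lower, but 155 genes were at least 8-fold higher against 3 that were at least 8-fold lower. The middle of the distribution lay near 0, with a median log2 fold change of 0.01 and 5th and 95th percentiles of -1.86 and 2.50. In a test against a 2-fold difference itself, 571 genes were higher and 350 lower. The groups did not overlap for 2292 genes (36.1%) that were higher and 2355 (37.1%) that were lower. Separate groups, given below for named genes, are therefore common among all genes. The balance of higher to lower calls depends on how libraries are scaled. Of all calls 50.9% were higher with the values as deposited, 32.9% with equal library totals and 27.1% in the deposited TPM table, where the median log2 fold change of all genes was -0.59. Genes at least 2-fold higher held 49.8% to 52.2% of the normalized counts of the control IP libraries and 12.0% to 22.3% of the input libraries. Genes at least 2-fold lower held 5.89% to 6.42% of the control IP and 19% to 29% of the input.

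**Figure D1:**
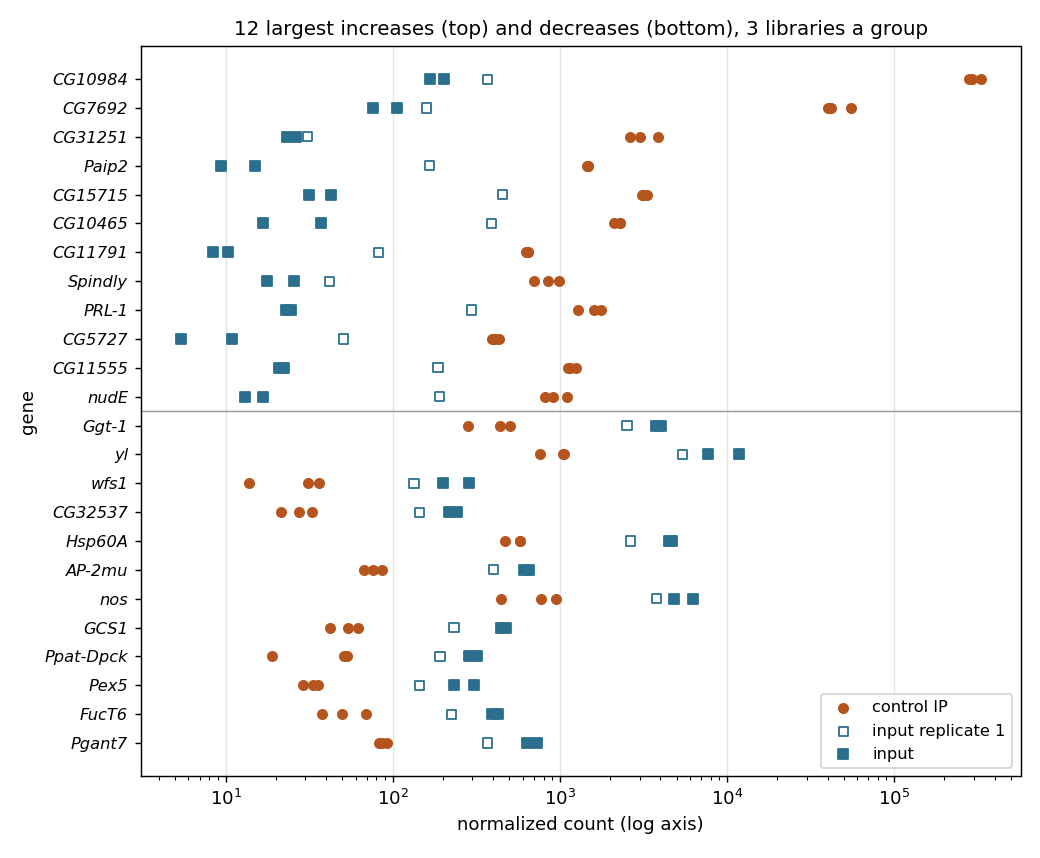
Normalized counts (log axis) of the 12 genes with the largest increases, above the line, and the 12 with the largest decreases, below it, in the 3 control IP libraries (circles) and the 3 input libraries (squares, with input replicate 1 open). Only genes whose groups do not overlap were eligible. Input replicate 1 lies on the control IP side of the other inputs for all of them, and CG10984 and CG7692 stand far to the right in the control IP.

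A few mRNAs accounted for a large part of what the control IP held. CG10984 had normalized counts of 329222, 279899 and 293347 in the control IP and of 371, 168 and 203 in the input. Its log2 fold change was 10.32 (SE 0.29, limma adjusted p = 1.09e-07), and this single gene took up 7.99% to 8.79% of all normalized counts of the control IP libraries. In the ORB2 IP its counts were 242329, 391029 and 206021, so the same mRNA was abundant with either Fab. CG10984 lies on chromosome 3L (12750119 to 12753402, plus strand, Ensembl BDGP6.54 coordinates) and overlaps CG10973 on the opposite strand.

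CG7692, on 3L at 17351822 to 17358056, followed with 55505, 40263 and 42068 in the control IP against 159, 106 and 76.5 in the input. The log2 fold change was 8.69 (SE 0.27, limma adjusted p = 1.11e-07), and the ORB2 IP held 30790, 44001 and 25991. CG31251, on 3R, had 2646, 3017 and 3854 in the control IP against 30.9, 26.6 and 23.2 in the input, a log2 fold change of 6.82 (SE 0.22). For these 3 genes the spread of the inputs was small beside the difference, and every control IP library was far above every input library.

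Most of the other 9 of the 12 largest increases rested more on which input library was used. Paip2, which encodes a translational repressor that binds poly(A)-binding protein, had 1478, 1461 and 1468 in the control IP. Its inputs were 166 in replicate 1 but 9.38 and 15.1 in replicates 2 and 3, and the log2 fold change of 5.60 carried an SE of 0.83. PRL-1, a protein tyrosine phosphatase, showed the same arrangement, with 1759, 1595 and 1285 in the control IP and 295, 22.9 and 24.8 in the input. CG15715, CG10465, CG11791, CG5727 and CG11555 had log2 fold changes of 5.21, 5.11, 4.94, 4.71 and 4.68, and input replicate 1 was the highest input for each of them. Spindly and nudE are members of the motor list described below. Spindly, which recruits dynein to kinetochores, had 991, 700 and 848 in the control IP against 41.7, 25.6 and 17.7 in the input (log2 fold change 4.92, SE 0.31). nudE, a dynein cofactor, had 811, 1097 and 907 against 192, 16.7 and 13.1 (4.68, SE 0.81). Separate groups were a condition for naming these genes, so their lack of overlap is no result.

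Among 477 genes that were at least 4-fold higher with a mean of at least 100, the 3 inputs lay within 2-fold of each other for 57. CG31251 was the largest of these. CG9650 had 827, 273 and 1058 in the control IP and 27.6, 22.9 and 24.3 in the input, and CG2129 had 2214, 2336 and 3741 against 121, 184 and 182. Stip1, the Hsp70 and Hsp90 organizing co-chaperone, had 2255, 2336 and 3517 against 490, 506 and 365. Dpy-30L1, a subunit of the histone H3 lysine methyltransferase complexes, had 467, 582 and 497 against 85.5, 64.1 and 87.9.

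The largest decreases were smaller and more even across libraries. Ggt-1, a gamma-glutamyl transpeptidase, had 505, 436 and 281 in the control IP against 2524, 4044 and 3769 in the input, and fell by 3.09 on the log2 scale (SE 0.27, limma adjusted p = 2.73e-04). yl encodes the yolk protein receptor of the oocyte. It had 1063, 1045 and 764 against 5423, 11738 and 7668, a log2 fold change of -3.05 (SE 0.28). nos, the posterior determinant and translational repressor, had 947, 775 and 448 against 3788, 4809 and 6296, a log2 fold change of -2.81 (SE 0.30). Hsp60A, the mitochondrial chaperonin, had 581, 576 and 469 against 2647, 4506 and 4689, a log2 fold change of -2.82. Input replicate 1 was the lowest input for each of these genes. Their lack of overlap was again a condition for naming them.

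The remaining 8 of the 12 largest decreases had log2 fold changes between -2.93 and -2.66. They were wfs1, the ER membrane protein wolframin, GCS1, the glucosidase that starts N-glycan trimming, FucT6 and Pgant7, a pair of Golgi glycosyltransferases, AP-2mu, a clathrin adaptor subunit, Pex5, the import receptor of peroxisomes, Ppat-Dpck, an enzyme of coenzyme A synthesis, and CG32537. Of these 12 genes 8 lie on the X chromosome (Ggt-1, yl, CG32537, Hsp60A, GCS1, Pex5, FucT6 and Pgant7). The X holds 1121 of all 6355 tested genes and 373 of the 1360 genes at least 2-fold lower. Of the genes named here and below, PRL-1, nudE, yl, CG32537, orb2, UQCR-Q, RpL22, eIF5, eIF2gamma, Spase22-23, Z600, Sry-alpha, osk, Krn, ctp, MED26 and CG32850 overlap another annotated element on the same strand, so their counts may include its reads.

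The gene the control Fab is named for was not called. Egfr, a receptor tyrosine kinase, had 45.6, 22.7 and 18 in the control IP and 40.7, 33.4 and 23.6 in the input, with a log2 fold change of -0.25 (SE 0.39, limma adjusted p = 0.582), and its estimate was 0.02 without control IP replicate 3. orb2, the mRNA of the study's target, had 49.7, 62.8 and 24.2 in the control IP and 57.2, 42.5 and 76.3 in the input (log2 fold change -0.42, limma adjusted p = 0.352). It had 6661, 9610 and 8127 in the ORB2 IP. In the TPM table orb2 was called lower in the control IP, with a log2 fold change of -0.82 (limma adjusted p = 0.0318). The groups overlap for both genes.

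**Figure D2:**
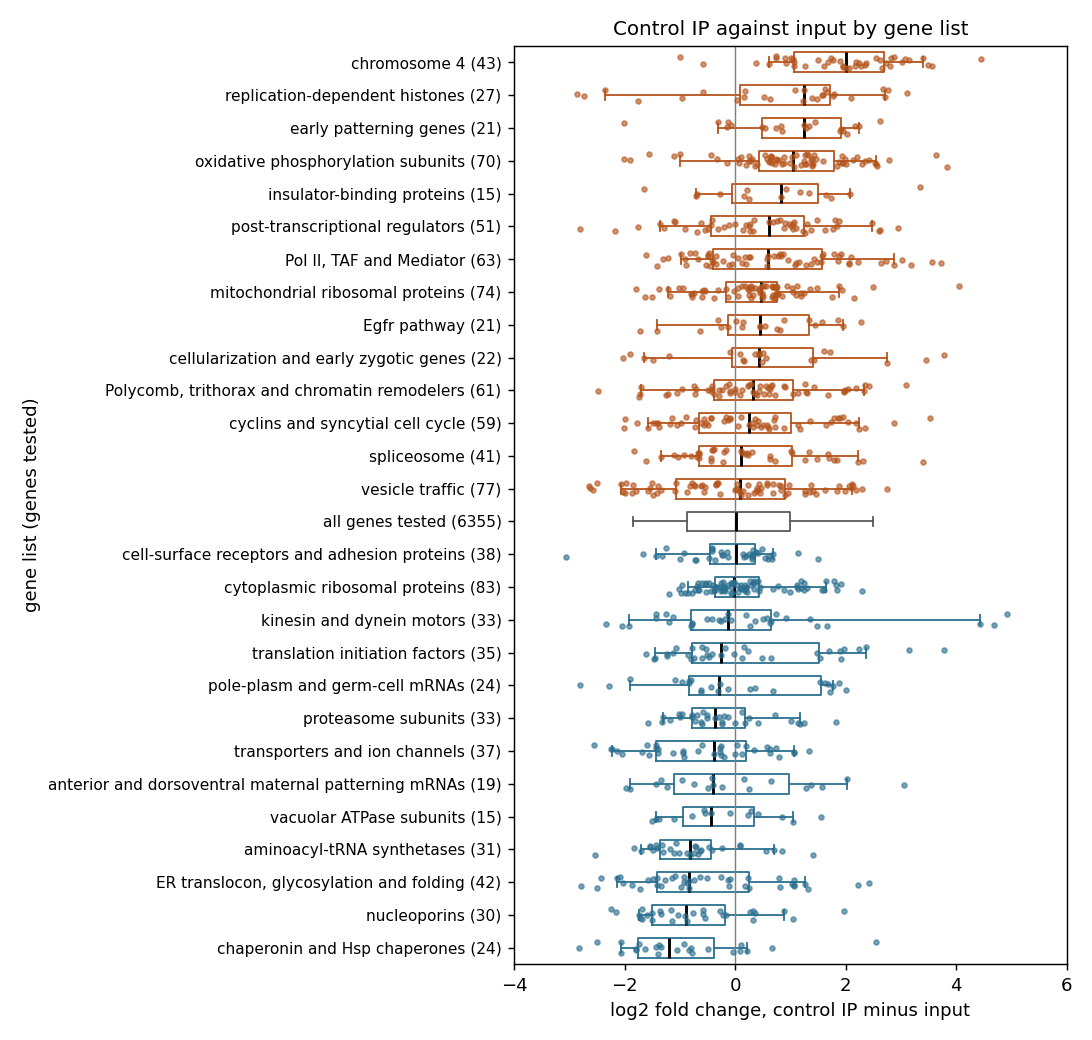
Log2 fold change of control IP minus input for every tested member of each gene list (points; number of genes in parentheses), with boxes from the 25th to the 75th percentile, a bar at the median and whiskers at the 5th and 95th percentiles. Chromosome 4 genes sit highest with a median of 2.01, oxidative phosphorylation subunits have a median of 1.05, and chaperones sit lowest with -1.21 against 0.01 for all genes tested.

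Genes of the respiratory chain were higher in the control IP as a group. Of 70 nuclear-encoded subunits of oxidative phosphorylation, 52 were called higher (74.3%, against 33.5% of all genes) and 5 lower (7.14%, against 32.3%), with a median log2 fold change of 1.05 against 0.01 for all genes. In the TPM table, where 18.5% of all genes were called higher and 49.7% lower, 35 were higher and 13 lower. The counts also moved once a smooth trend on the factor between both tables of each gene, a stand-in for transcript length, was removed. With this length trend removed, 29.4% of all genes were called higher and 35.7% lower, and of the respiratory subunits 24 were higher (34.3%) and 17 lower (24.3%), with a median of 0.05, or 0.21 relative to all genes. COX7A, a small subunit of cytochrome c oxidase, had 2104, 2227 and 2413 in the control IP and 297, 115.4 and 113 in the input, a log2 fold change of 3.83 (SE 0.34, limma adjusted p = 2.73e-04). UQCR-Q, a small subunit of complex III, had 1515, 1594 and 1456 against 305, 77.2 and 76.5 (log2 fold change 3.63). ATPsynCF6, of the ATP synthase, had 3712, 3727 and 3500 against 954, 487 and 510. In all 3 genes every control IP library lay above every input, with input replicate 1 nearest. In contrast UQCR-C2, a large core subunit of complex III, had 181, 195 and 216 against 558, 933 and 967 (log2 fold change -2.01), and SdhA, the flavoprotein of succinate dehydrogenase, had 194, 233 and 165 against 593, 858 and 769 (-1.90).

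The division by complex was made after the values were seen. Called higher were 9 of 10 subunits of complex IV, 11 of 13 of the ATP synthase and 24 of 33 of complex I. The share of all genes was 33.5%. Complex III split, with 5 of 9 higher and 2 lower. With the length trend removed, complex I had 6 higher and 9 lower and complex III 3 and 3. Complex IV then had 5 higher and 1 lower, and the ATP synthase 7 and 2. By TPM, complex I had 12 higher and 7 lower, complex IV 9 and 0, and the ATP synthase 7 and 1. The subunits that were called higher had a median coding length of 355.5 nt, and the 5 called lower had 1410 nt.

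Ribosomal protein genes of both ribosomes were mixed. Of 74 mitochondrial ribosomal proteins 32 were called higher (43.2%) and 16 lower (21.6%), beside 33.5% and 32.3% of all genes, with a median of 0.47. By TPM, 11 were higher (14.9%) and 25 lower (33.8%), beside the 18.5% and 49.7% of all genes, and the median relative to all genes was 0.41 by TPM against 0.46 in the normalized counts. mRpL33 had 400, 359 and 364 in the control IP and 73.5, 10.6 and 12.3 in the input (log2 fold change 4.05), and mRpL46 had 64.9, 74.5 and 86.5 against 183, 290 and 337 (-1.79). With the length trend removed 7 were higher and 33 lower, with a median of -0.42, or -0.26 relative to all genes. Of 83 cytoplasmic ribosomal proteins 20 were called higher (24.1%) and 15 lower (18.1%), and 48 were not called (median -0.03). RpL22, with the largest increase, had 2858, 1991 and 2056 against 885, 405 and 275 (log2 fold change 2.29). RpS5b, with the largest decrease, had a log2 fold change of -1.20. By TPM, 11 of the 83 were higher (13.3%) and 51 lower (61.4%). With the length trend removed 7 were higher and 57 lower (68.7%), with a median of -0.91, or -0.745 relative to all genes.

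Of the other translation lists, the tRNA synthetases were lower for the most part and the initiation factors were called in shares near those of all genes. Of 31 aminoacyl-tRNA synthetases, which charge tRNAs, 19 were called lower (61.3%, against 32.3% of all genes) and 1 higher (3.23%, against 33.5%). Their median was -0.83. AlaRS and CysRS had log2 fold changes of -1.83 and -1.71, and ValRS-m, of the mitochondrion, had -2.54. The 1 call upward was AspRS-m, with a log2 fold change of 0.85 (limma adjusted p = 0.0336). Its groups overlap, and it was not called with equal totals (0.43, limma adjusted p = 0.275) or by TPM (0.18, limma adjusted p = 0.665). Of 35 translation initiation factors 11 were higher (31.4%) and 13 lower (37.1%), near the 33.5% and 32.3% of all genes (median -0.26). eIF4B, which aids unwinding of the 5′ end by eIF4A, had 2048, 1890 and 1652 in the control IP against 495, 62.2 and 77.7 in the input (log2 fold change 3.78, SE 0.63). eIF4G1, the scaffold of the cap-binding complex, had 598, 655 and 480 against 329, 55.6 and 73.7 (2.36, SE 0.55). eIF5, which triggers GTP hydrolysis on the scanning complex, had 2402, 2530 and 2384 against 891, 121 and 192 (3.14). The groups are separate in all 3 genes, and input replicate 1 was several times the other inputs. eIF2Bdelta and eIF2gamma went the other way, with log2 fold changes of -1.61 and -1.45. Grouped after the values were seen, 5 of 7 genes of the eIF4 group were called higher and none lower, and 3 of 5 of eIF2B were called lower and none higher. By TPM, 3 of the eIF4 group were higher and 1 lower, and all 5 of eIF2B were lower. Against the mean of the inputs, the eIF4 group median was 0.91 in input replicate 1 and -0.78 in input replicate 3.

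Chaperone genes were lower for the most part, and proteasome genes were called lower more often than higher. Of 24 chaperones 17 were called lower (70.8%, against 32.3% of all genes) and 2 higher (8.33%, against 33.5%). Their median of -1.21 was the lowest of all lists. All 8 subunits of the CCT chaperonin, the cytosolic folding chamber for actin and tubulin, were called lower, with a median of -1.80. CCT2 had 805, 817 and 749 in the control IP against 3252, 4950 and 5602 in the input (log2 fold change -2.50, SE 0.23, limma adjusted p = 2.73e-04). Stip1, described above, was the larger of the 2 increases with a log2 fold change of 2.56. Of 33 proteasome subunits 15 were lower (45.5%) and 6 higher (18.2%). The division of the proteasome was by particle and was made after the values were seen. In the regulatory particle 13 of 18 subunits were lower and 1 higher (median -0.75), and in the core particle 2 of 15 were lower and 5 higher (median 0.13). Rpn2, a scaffold of the regulatory particle, had 320, 295 and 226 against 675, 1109 and 763, while Prosbeta3, of the core, had 2434, 1941 and 2251 against 975, 501 and 494.

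Genes of the endoplasmic reticulum were lower for the most part. Of 42 genes of the ER translocon, glycosylation and folding, 24 were called lower (57.1%, against 32.3% of all genes). Another 9 were called higher (21.4%, against 33.5%), and the median was -0.84. Sec63, which works with the translocon, had 136, 167 and 127 in the control IP against 552, 1047 and 935 in the input (log2 fold change -2.51). Stt3A, the catalytic subunit of oligosaccharyltransferase, had 122, 152 and 169 against 418, 829 and 794 (-2.14). Some small members of the same machines were higher. Dad1, another subunit of oligosaccharyltransferase, had 552, 524 and 558 against 186, 67.0 and 83.4 (2.41), and Srp14, of the signal recognition particle, had 544, 523 and 502 against 169, 89.6 and 91.1 (2.22). The groups do not overlap in any of these 4 genes. Not every small member was higher. SsRbeta, of the translocon-associated complex, and Spase22-23, of the signal peptidase, were called lower with log2 fold changes of -0.93 and -0.64, and Sec61beta was not called. The Spase22-23 call was lost without control IP replicate 1 or 2 or input replicate 3 (limma adjusted p = 0.0741, 0.0843 and 0.0702). The 9 higher genes had a median coding length of 336 nt and the 24 lower genes 1812 nt.

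Of 77 vesicle traffic genes 27 were higher (35.1%) and 26 lower (33.8%), shares near the 33.5% and 32.3% of all genes (median 0.09). By TPM, 13 (16.9%) and 35 (45.5%) were called, again near all genes. Arf79F, a small GTPase that recruits coats at the Golgi, had 2259, 2904 and 3612 in the control IP against 956, 302 and 273 in the input (log2 fold change 2.74). The coat itself was lower. Of the 7 subunits of COPI, grouped after the values were seen, 6 were called lower with at least a 2-fold difference, and betaCOP had 127, 119 and 105 against 461, 902 and 816 (-2.57). The seventh, zetaCOP, the small subunit, had a log2 fold change of 0.97, but 0.31 (limma adjusted p = 0.101) by TPM and 0.04 (limma adjusted p = 0.845) with the length trend removed. Of 21 Rab GTPases, also grouped after the values were seen, 12 were higher and 4 lower (median 0.58). By TPM, 4 Rab genes were higher and 5 lower, and their median relative to all genes was 0.53 there against 0.57. Rab9, a GTPase of endosome-to-Golgi transport, had the largest decrease of the vesicle list, with 20.9, 26.5 and 12.9 against 88.3, 152 and 150 (-2.65), and every control IP value lay below every input.

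Membrane proteins that are made on the ER did not behave as 1 class. Of 38 cell-surface receptors and adhesion proteins 28 were not called, 2 were higher (5.26%) and 8 lower (21.1%). Their median of 0.01 equalled that of all genes. The yolk receptor yl had by far the largest change among them. dome, the receptor of the JAK/STAT pathway, had 118, 171 and 117 in the control IP against 293, 654 and 409 in the input (log2 fold change -1.67). Tsp96F, a tetraspanin, had the largest called increase, 1.5, but its groups overlap and it was not called with equal totals (1.08, limma adjusted p = 0.101). It was also not called without control IP replicate 1 or 2 or input replicate 2 or 3 (limma adjusted p from 0.0621 to 0.101). Of 37 transporters and ion channels 16 were lower (43.2%, against 32.3% of all genes) and 5 higher (13.5%, against 33.5%), with a median of -0.38. The largest decrease was that of slif, an amino acid transporter, with a log2 fold change of -2.56. Stim, the calcium sensor of the ER, rose by 1.33 on the log2 scale but was not called with equal totals (0.91, limma adjusted p = 0.0626) or by TPM (0.65, limma adjusted p = 0.126). Of 15 subunits of the vacuolar ATPase 7 were lower (46.7%) and 3 higher (20.0%), from VhaPPA1-1 with -1.5 to Vha26 with 1.55 (median -0.44).

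Nucleoporin mRNAs were lower. Of 30 genes 20 were called lower (66.7%, against 32.3% of all genes) and 2 higher (6.67%, against 33.5%), with a median of -0.89. Nup205, of the inner ring, had 287, 262 and 227 in the control IP against 849, 1744 and 1257 in the input (log2 fold change -2.25). Nup62, of the central channel, had 1103, 1265 and 1342 against 431, 261 and 271 (1.98). Of 33 motor genes 9 were higher (27.3%) and 11 lower (33.3%), beside 33.5% and 32.3% of all genes (median -0.13). The 3 largest increases of the functional lists were here. These were Spindly and nudE, described above, and the dynein light chain ctp, with 2900, 2642 and 2908 against 689, 47.4 and 65.3 (4.43, SE 0.80). The largest decrease was that of neb, a kinesin, with 112, 112 and 55.9 against 316, 590 and 500 (-2.34).

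mRNAs of nuclear regulators were higher more often than lower in the normalized counts. The TPM table moved these lists about as far as all genes, so their medians relative to all genes hardly differed between the tables. Of 63 genes of RNA polymerase II, its TAF cofactors and Mediator, 33 were called higher (52.4%) and 11 lower (17.5%), with a median of 0.59. By TPM, 22 were higher (34.9%) and 23 lower (36.5%), and the median relative to all genes was 0.52 there against 0.57. With the length trend removed 25 were higher and 18 lower. Rpb12, a small polymerase subunit, had 650, 563 and 468 in the control IP against 131, 14.5 and 36.1 in the input (log2 fold change 3.72, SE 0.62). MED26, of Mediator, had 1224, 1579 and 1680 against 287, 50.1 and 136 (3.55, SE 0.50). Both genes were above every input in every control IP library. MED16 and Taf5 were lower, with -1.61 and -1.42. Of 61 genes of the Polycomb and trithorax groups and of chromatin remodelers 23 were higher (37.7%) and 10 lower (16.4%), with a median of 0.32. By TPM, 10 were higher (16.4%) and 23 lower (37.7%), and the median relative to all genes was 0.27 there against 0.31. Chrac-14, a histone-fold subunit of the CHRAC remodeler, had the largest increase, with 2034, 1812 and 2012 against 419, 145 and 197 (3.08). Utx, a histone demethylase, had 400, 465 and 548 against 196, 50.5 and 74.9 (2.35), and HDAC6, a deacetylase that acts on cytoplasmic proteins, had 163, 166 and 91.5 against 555, 983 and 800 (-2.48). Of 15 insulator-binding proteins 8 were higher (53.3%, against 33.5% of all genes) and 2 lower (13.3%, against 32.3%), with a median of 0.82. By TPM, 5 were higher and 5 lower. The median relative to all genes was 0.81, and 0.76 by TPM. The partners Ibf1 and Ibf2 both rose, by 3.34 and 2.07 on the log2 scale, and dwg, a zinc-finger protein, had -1.65. Unlike the respiratory subunits, the Polycomb and trithorax genes that were higher were not short, with a median coding length of 3138 nt against 2607 nt for those that were lower.

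Histone mRNAs of the replication-dependent cluster, which end in a stem-loop in place of a poly(A) tail, were higher. Of 27 histone rows 16 were called higher (59.3%, against 33.5% of all genes), all by at least 2-fold. Only 1 was called lower (3.7%, against 32.3%), and the median was 1.25. By TPM, 13 were higher and 5 lower. With the length trend removed 11 were higher and 8 lower, with a median of 0.29, or 0.45 relative to all genes. His2B:CG17949 had 89093, 76563 and 63278 in the control IP against 11748, 12219 and 10757 in the input, a log2 fold change of 2.71 (SE 0.24). The largest change was that of His1:CG33861, with 700, 765 and 524 against 105, 99.9 and 40.5 (3.10). His2B:CG33882 was the row called lower (-2.37, SE 0.93, limma adjusted p = 0.0465). Its groups overlap, and it was not called without input replicate 1 (limma adjusted p = 0.0556) or without control IP replicate 2, where it was -1.29 (limma adjusted p = 0.141). It was also lost without control IP replicate 3 or input replicate 3 (limma adjusted p = 0.0663 and 0.176). With all 9 libraries in 1 fit neither row was called (limma adjusted p = 0.107 and 0.31). The cluster holds many near-identical copies, so the division of reads between rows of one histone type is uncertain, and some His2B rows had lower means in the control IP. The sum over a type was not tested.

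Regulators of mRNA itself were higher on balance in the normalized counts. Of 51 post-transcriptional regulators 25 were called higher (49%) and 11 lower (21.6%), with a median of 0.61. By TPM, 10 were higher (19.6%) and 19 lower (37.3%), beside 18.5% and 49.7% of all genes, and the median relative to all genes was 0.55 there against 0.60. Of 8 genes of the CCR4-NOT deadenylase, grouped after the values were seen, 6 were called higher and 1 lower (median 1.17). By TPM, 3 of the 8 were higher and 2 lower, and their median relative to all genes was 1.09 there against 1.16. Not3 had 448, 530 and 515 in the control IP against 265, 41.9 and 22.7 in the input (log2 fold change 2.94, SE 0.71), and Not10 had 75.1, 76.2 and 42.9 against 215, 327 and 333 (-2.17). me31B, the RNA helicase of maternal granules, had 4741, 4582 and 3245 against 3261, 431 and 295. Its log2 fold change of 2.47 (SE 0.72, limma adjusted p = 0.0134) rests on input replicates 2 and 3, because input replicate 1 overlaps the control IP, and it was not called without either of them (limma adjusted p = 0.062 and 0.0614). Of 41 spliceosome genes 15 were higher (36.6%) and 12 lower (29.3%), near the 33.5% and 32.3% of all genes (median 0.10). By TPM, 10 were higher (24.4%) and 22 lower (53.7%). Sf3b5, a small U2 snRNP subunit, had 926, 911 and 728 against 209, 42.1 and 57.7 (3.39), and snRNP-U1-70K had 294, 224 and 175 against 680, 825 and 938 (-1.83). The 15 higher spliceosome genes had a median coding length of 363 nt and the 12 lower ones 2262 nt.

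Among mRNAs that pattern the embryo, early zygotic patterning genes, mostly transcription factors, were higher. Of 21 genes 12 were called higher (57.1%, against 33.5% of all genes) and 1 lower (4.76%, against 32.3%), with a median of 1.24. zen, the dorsal homeobox gene, had 140, 123 and 63.8 in the control IP against 34.5, 11.5 and 9.94 in the input (log2 fold change 2.62, SE 0.48, limma adjusted p = 0.00127). hb, the gap gene with maternal and zygotic transcripts, had 320, 365 and 341 against 181, 50.5 and 45.6 (2.18, SE 0.45), and gt had 61.0, 66.2 and 35.6 against 21.03, 11.2 and 7.58 (2.02). In all 3 genes the control IP lay above the inputs, and input replicate 1 was nearest to it. tsg, which codes for a secreted protein, was the 1 gene called lower, with 29.2, 25.7 and 6.87 against 78.8, 69.7 and 72.1 (-2.01). The 6 listed zygotic markers together had a TPM sum of 59.7 to 78.9 in the control IP libraries, 52.3 in input replicate 1 and 24.4 and 28.1 in the other inputs. zen and hb made up the larger part of the control IP sums. By TPM zen, hb and ftz were higher in every control IP library than in any input, and the groups overlap for sna, twi and kni. twi had TPM values of 8.33, 7.884 and 7.002 in the control IP against 8.583, 8.119 and 8.194 in the input. Whether the age of the embryos in input replicate 1 differed was not tested.

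Of 22 genes of cellularization and the first zygotic wave 7 were higher (31.8%) and 4 lower (18.2%), beside 33.5% and 32.3% of all genes (median 0.43). halo, a regulator of lipid droplet transport, had 1236, 1140 and 786 in the control IP against 165, 59.5 and 42.1 in the input (log2 fold change 3.78), and Z600, a mitotic inhibitor, had 993, 1080 and 809 against 164, 52.8 and 73.4 (3.46). Z600 overlaps gdl on the same strand. Sry-alpha and dah, both needed for the furrow membranes, went the other way, with 248, 220 and 195 against 757, 906 and 1083 (-2.04) and with 387, 443 and 535 against 1144, 1899 and 2203 (-1.90).

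Localized maternal mRNAs were called in both directions, as were all genes. Of 24 pole-plasm and germ-cell mRNAs 7 were higher (29.2%) and 10 lower (41.7%), beside 33.5% and 32.3% of all genes (median -0.29). nos was lowest, while tud, a germ granule scaffold, had 204, 282 and 218 in the control IP against 137, 37.7 and 35.9 in the input (log2 fold change 2.00), and stau, the double-stranded RNA-binding transport protein, had 317, 336 and 291 against 133, 71.2 and 63.4 (1.88). The groups do not overlap for these genes. osk, the organizer of pole plasm, had 708, 821 and 357 against 730, 516 and 266 and was not called. Its estimate was 0.35 in the normalized counts and -0.30 in the TPM table. It ranged further with single libraries left out, as given with the processing alternatives. Of 19 mRNAs of the anterior and dorsoventral maternal systems 6 were higher and 6 lower (31.6% each), near the shares of all genes (median -0.39). spz, the ligand of Toll, had 192, 229 and 261 against 81.3, 15.4 and 14.4 (3.05, SE 0.56), and exu, needed for bcd localization, had 770, 693 and 518 against 1670, 3645 and 2397 (-1.91). gd, a protease of the dorsal cascade, had the largest decrease, with 31.1, 28.8 and 13.9 against 70.1, 120 and 98.3 (-1.97). The 10 maternal markers together had a TPM sum of 880 to 1020 in the control IP and 2430 to 3540 in the input. nos, Hsp83 and pgc made up the larger part of these sums. By TPM stau was higher in every control IP library than in any input, and the groups overlap for osk, smg and tor.

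bcd, the anterior determinant, had 223, 219 and 220 in the control IP against 254, 251 and 274 in the input. Its log2 fold change was -0.23 (SE 0.18, limma adjusted p = 0.28), although the groups do not overlap. With equal library totals it was called lower (-0.65, limma adjusted p = 0.00935), but the median of all genes was -0.41 under that scaling.

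Of 59 cell cycle genes 20 were higher (33.9%) and 18 lower (30.5%), shares near those of all genes (median 0.25). By TPM, 12 (20.3%) and 27 (45.8%) were called. pim, the Drosophila securin, had 2558, 2809 and 2706 in the control IP against 628, 122 and 167 in the input (log2 fold change 3.52), and twe, the meiotic Cdc25 phosphatase, had 1655, 1512 and 1290 against 550, 224 and 249 (2.23). For both genes every control IP value exceeded every input value. All 6 subunits of the MCM replicative helicase, grouped after the values were seen, were called lower (median -1.27), and Mcm3 had 295, 310 and 312 against 819, 1492 and 1509 (-2.0). cort, a female-specific activator of the anaphase-promoting complex, had the largest decrease of the list, with 67.8, 69.1 and 44.3 against 156, 319 and 281 (-2.01). Of 21 genes of the Egfr pathway, which the control Fab's name brings into view, 9 were higher (42.9%) and 3 lower (14.3%). The shares of all genes were 33.5% and 32.3%, and the list median was 0.45. By TPM, 6 were higher (28.6%) and 5 lower (23.8%). Krn, a ligand of Egfr, had the largest increase, with 103, 126 and 171 against 42.7, 23.5 and 17.6 (2.28). drk, the adaptor, had 960, 934 and 1016 against 350, 228 and 235 (1.86). The next steps of the cascade differed in direction, and rl, the MAP kinase, had 799, 875 and 949 against 520, 95.4 and 229 (1.95), and Dsor1, the MAP kinase kinase, had 126, 138 and 108 against 322, 509 and 427 (-1.73).

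Across the transcriptome, coding length went with the difference. Lengths are those of each gene's annotated transcript with the longest 3′UTR. In the quintile of genes with the shortest coding regions, with a median of 465 nt, the median log2 fold change was 0.94, and 608 of 1262 genes were at least 2-fold higher against 60 at least 2-fold lower. The following quintiles had medians of 0.11, -0.35 and -0.53. In the quintile with the longest coding regions, with a median of 3406.5 nt, the median was -0.21, with 235 genes at least 2-fold higher and 319 lower. The fall therefore ended before the longest genes. Across 6309 genes Spearman's rho was -0.297 with coding length, -0.196 with transcript length and 0.01 with 3′UTR length. Genes share library and depth, so these are descriptions with no test. The factor between the deposited normalized counts and TPM of a gene had a rho of 0.957 with transcript length, and the TPM table gave another balance of calls, as set out with the processing alternatives.

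**Figure D3:**
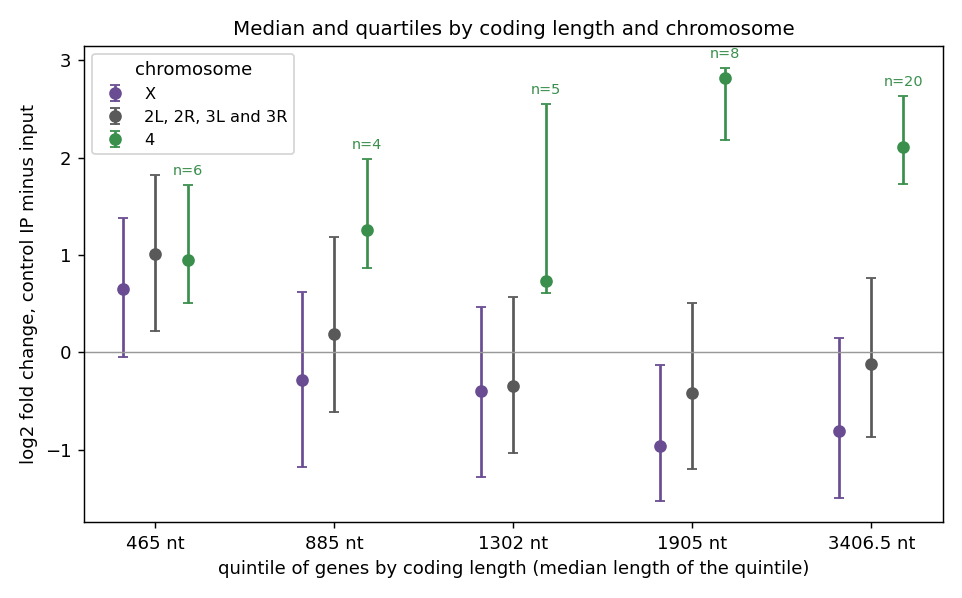
Median log2 fold change of control IP minus input (points) with the 25th to 75th percentiles (bars) in quintiles of genes by coding length, for the X, for chromosomes 2 and 3 and for chromosome 4. X genes lie below chromosome 2 and 3 genes in every quintile, and chromosome 4 genes, labelled with their number, reach medians of 2.81 and 2.11 in the longest quintiles. In the shortest quintile the chromosome 4 median is 0.95, beside 1.01 for chromosomes 2 and 3.

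The position of a gene also went with the difference. Chromosome 4 is the small, largely heterochromatic autosome of Drosophila. Of its 43 tested genes 40 were called higher (93%) and 1 lower, with a median of 2.01 against 0.09 for 5145 genes on chromosomes 2 and 3. These genes are long, and in the quintile with the longest coding regions 20 of 20 chromosome 4 genes were at least 2-fold higher, against 191 of 982 genes of chromosomes 2 and 3. In the shortest quintile chromosome 4 genes were not above the others. There 3 of 6 were at least 2-fold higher, against 528 of 1057, with medians of 0.95 and 1.01. Slip1 had 867, 908 and 806 in the control IP against 191, 9.92 and 28.5 in the input (log2 fold change 4.44, SE 0.81). 4E-T, an eIF4E-binding translational repressor, and Pur-alpha, a single-strand nucleic acid-binding protein, had log2 fold changes of 3.49 and 3.14, and RpS3A, a ribosomal protein, had 1.6. The exceptions were ND-49, of complex I, which was lower with 332, 309 and 342 against 543, 632 and 815 (-0.995), and Arf102F and CG32850, which were not called. CG32850 had 54.4, 41.6 and 51.0 against 57.2, 57.5 and 118 (-0.58, limma adjusted p = 0.145). It was called lower with equal totals (-0.99, limma adjusted p = 0.0195), by TPM (-1.12, limma adjusted p = 0.00715) and without input replicate 1 (-0.75, limma adjusted p = 0.0464).

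The 3 inputs disagreed on chromosome 4 more than on any other group in the plot of medians by library. Against the mean of the inputs, the median over chromosome 4 genes was 0.97 in input replicate 1, -0.92 in replicate 2 and -0.04 in replicate 3, and 1.91 to 2.14 in the control IP. In the ORB2 IP it was 1.94 to 2.05. Relative to all genes, the median log2 fold change of chromosome 4 genes was 2.57 without input replicate 1 and 1.48 without input replicate 2. The control IP medians lay above those of all 3 inputs, but the size of the difference depended on the input.

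X-linked genes were lower. Of 1121 genes 278 were called higher (24.8%) and 499 lower (44.5%), with a median of -0.40. The X had lower medians than chromosomes 2 and 3 in each quintile of coding length, by the largest margin in the longest, with -0.81 against -0.11, and by the smallest in the middle quintile, with -0.39 against -0.35. The arms 2L, 2R, 3L and 3R had medians from 0.05 to 0.15.

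**Figure D4:**
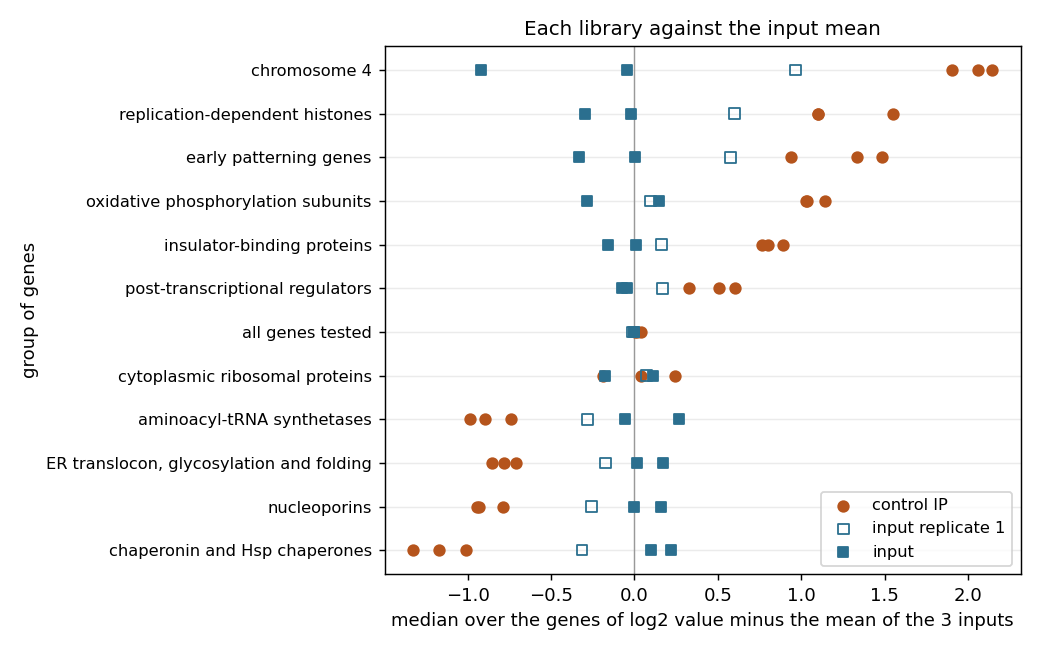
Median over the genes of a group of each library's log2 value minus the mean of the 3 inputs, for the control IP libraries (circles) and the input libraries (squares, with input replicate 1 open). Input replicate 1 lies on the control IP side of the other inputs for most groups, and the oxidative phosphorylation subunits are a group in which it lies between them.

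Input replicate 1 moved with the result in most of these groups. It was the highest of the 3 inputs for 1396 of the 1567 genes at least 2-fold higher in the control IP (89.1%) and the lowest for 1287 of the 1360 genes at least 2-fold lower (94.6%). Over all tested genes it was the highest for 37.7% and the lowest for 40.2%. Without it, 2365 genes were called higher and 2259 lower. In the plot of medians by library it lay toward the control IP for histones at 0.60, for early patterning genes at 0.58 and for chaperones at -0.32. For oxidative phosphorylation subunits it lay at 0.10, between input replicate 2 at -0.28 and input replicate 3 at 0.15. Its part in the results named above was not tested beyond leaving it out.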

How the data were processed

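RNA was measured by RIP-seq in 9 libraries of wild-type embryo extract, and 3 control IP and 3 input libraries, grouped by their titles, were compared. Per the labels' protocols ribosomal RNA was depleted, and libraries were stranded with paired reads of 125 nt. The submitters' processing notes name the tools DESeq2 (1.42.1), Salmon (1.9.1) and Trim Galore (0.6.5), with no role for any of them. Neither the build nor the gene annotation that the authors used is stated. One table deposited by the authors holds normalized counts, treated here as a signal because its scaling is not described, and the other deposited table holds TPM, which accounts for transcript length and library total. Whole reads could not be recovered for the inputs, so the values were not given to a count model.

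Genes with a mean of at least 10 over the 6 libraries were tested on log2(value + 1) with limma 3.58.1 in R 4.3.3, with a mean-variance trend, two-sided, and Benjamini-Hochberg adjustment over all tested genes. A fold change on this scale understates the change of low genes. A gene was called at an adjusted p below 0.05. The script was tested on simulated data with known changes. The 12 largest increases and decreases were named among called genes with a mean of at least 100 and no overlap between the groups, with Egfr, orb2 and, of each list, the called member with the largest change in each direction and other examples. Members, lists and examples were chosen with earlier results of these data known, and lists are described by counts and medians with no set test. Coordinates and lengths came from the BDGP6.54 annotation of Ensembl release 115, where 6394 of the 6440 gene IDs were found, and which may differ from the authors' annotation. The lengths of a gene are those of its annotated transcript with the longest 3′UTR, and other transcripts of the gene can have longer coding regions. Protein sequence features and sequences were not analysed here. Whether counting used strand is not stated, so opposite-strand neighbours may share reads. Alternatives covered scaling, the TPM table, pseudocount, filter, fit, replicate block, each library left out and removal of a length trend, of which the last and a TPM pseudocount of 0.1 were chosen after seeing the data.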

Additional observations from a re-analysis of the deposited data

How the results depend on the processing

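The direction and size of the named differences depended little on the pseudocount, the filter or the fit, and the counts depended on the scaling and on the input library. With equal library totals 1404 genes were called higher, and the 2-fold counts were 1043 higher and 2098 lower. By TPM, 1173 were higher and 3158 lower, 807 and 2397 of them past 2-fold, and with a TPM pseudocount of 0.1 the counts were 1168, 3149, 841 and 2521. The test against 2-fold gave 571 higher and 350 lower. These scalings moved the median log2 fold change of all genes to -0.41 with equal totals and to -0.59 and -0.64 in TPM, so list medians were compared with that median. Leaving out each library in turn gave 1756 to 2365 genes higher, 1717 to 2259 lower, with 1347 to 1755 and 1208 to 1550 past 2-fold. The highest counts came without input replicate 1. With each library left out in turn, Egfr ranged from -0.63 to 0.017 (without control IP replicate 3) and osk from -0.052 (without input replicate 3) to 0.71. With the length trend removed the mitochondrial ribosomal proteins turned to -0.26 relative to all genes. Arf102F turned to -0.047 with equal totals, -0.28 in TPM at either pseudocount and -0.53 with the length trend removed. osk turned to -0.071 with equal totals and -0.30 in TPM at either pseudocount. The cause of these changes was not tested.

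With the replicate number as a block, 2144 genes were called higher and 2092 lower, 1575 and 1365 by at least 2-fold. Same-numbered control IP and input libraries had correlations of deviations of 0.0418, 0.183 and 0.181, so the numbers were not taken to pair the samples, although each library correlated best with its own number. The unknown depth of the inputs limits what can be said of genes with low input values.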
